A study of Mus musculus with 12 samples.

Results

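Heat shock genes were examined in colon and urinary bladder of mice with and without induced deletion of Yap1 and Wwtr1 (genes of the coactivators YAP and TAZ) in smooth muscle. The set held 10 genes of 54532 in the files, found by gene name and summed by gene ID. Of these, 5 encode chaperones, which bind and refold other proteins: Hspa8, Hspa1a, Hspa1b, Hsph1, and Dnajb1. The other 5 encode small heat shock proteins: Hspb1, Hspb6, Hspb7, Hspb8, and Cryab. Rows were found by name, but the genes were chosen with earlier results of these data known. All 10 passed the filter on low values (at least 0.5 TPM in at least 3 libraries) in every comparison.

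Control (Ctrl) mice carried floxed Yap1 and Wwtr1 and no Cre. Y/T KO mice carried the same floxed genes and the Myh11-CreERT2 transgene, whose Myh11 promoter is active in smooth muscle, so the other cells of these tissues keep both genes. Mice of both genotypes were males of 5 to 7 weeks, received tamoxifen at 1 mg per mouse and day on 5 days, and gave tissue 7 days after the first dose. Each group of tissue and genotype held 3 libraries, 12 in all, from 9 mice. Mouse 788 (Ctrl) and mice 783 and 780 (Y/T KO) gave both tissues, and libraries are named here by mouse number. RNA came from whole-tissue homogenate, so fewer cells of a type and less RNA per cell cannot be told apart. Library values are TPM, transcript counts scaled by length and by library total, as the authors deposited them. Fold changes and their standard errors (SE) come from limma fits on log2 of rescaled TPM plus 0.1, and a gene was called at a Benjamini-Hochberg adjusted p under 0.05.

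The libraries held 2.80 to 3.94 gigabases of aligned sequence, estimated from the deposited coverage. Urothelium markers summed to 5180 to 7078 TPM in bladder and 29.3 to 44.1 in colon. Markers of colon epithelium, some shared with urothelium, summed to 12360 to 15270 in colon and 844 to 944 in bladder. Summed skeletal muscle markers (12 genes) stood apart in the Y/T KO bladders of mice 783 and 780, at 8809 and 9394 TPM. In the other bladder libraries these markers summed to 1294 to 2268, and in colon to 19.7 to 35.3. Cardiac muscle markers summed to 340 to 824 in bladder and 12.7 to 20.1 in colon, adipocyte markers to 1512 to 3077 and 119 to 238, and glia markers to 48.4 to 98.7 and 12.8 to 19.98. No gene of any of these lists was called between genotypes in either tissue. Yap1 measured 98.6 to 110 TPM in Ctrl bladder and 69.4 to 72.1 in Y/T KO bladder, a log2 difference of -0.54 (SE 0.08, adjusted p = 0.0625). In colon, Yap1 measured 45.8 to 54.9 in Ctrl and 41.3 to 47.0 in Y/T KO (adjusted p = 0.697). Wwtr1 overlapped between genotypes in both tissues, with log2 differences of 0.18 in colon and 0.24 in bladder (adjusted p = 0.73 and 0.678). Gene TPM also counts transcripts that lack only the floxed exons, and RNA of other cells, so it is no full check of the deletion. By Western blot and tissue staining, the paper reported reduced YAP and TAZ protein in Y/T KO colon. Its methods give later days than here for most experiments.

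Cells raise heat shock genes when proteins unfold. The factor HSF1 then binds heat shock elements, which are inverted repeats of the letters GAA, and drives Hspa1a, Hspa1b, Hsph1, Dnajb1, and Hspb1. Hspa8 encodes HSC70, the HSP70 protein present in all cells without stress. Small heat shock proteins hold unfolded proteins without using ATP, and several are abundant in muscle, where they bind actin filaments, desmin, and filamin.

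The region before the transcription start was taken from RefSeq (GRCm38.p6) for 8 of the 10 genes. Hspa8 and Cryab were not among them. A pair of inverted GAA units, spelled GAANNTTC or TTCNNGAA, lay within 250 bases before a start of 5 of these 8 genes: Hspa1a, Hspa1b, Hsph1, Hspb1, and Hspb6. Counted by promoter, the same letters occurred in 6 of the 11 promoters of these genes and in 12.8% of all 32851 promoters of this length. The Hsph1 promoters overlap and hold the same site. Each pattern is its own reverse complement. A run of 3 units (GAANNTTCNNGAA or TTCNNGAANNTTC) occurred in 0.466% of all promoters and in none of the 11 promoters of these genes. YAP and TAZ act through TEAD factors, whose element (GGAATG, or CATTCC on the other strand) occurred in 12.6% of all promoters and, among these genes, in Hspb1 only. It lay 49 to 44 bases before the Hspb1 start. The CArG box, read by the muscle regulator SRF, was searched as CC, 6 bases of A or T, and GG. It occurred in 1.47% of all promoters and in none of these.

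These are 250-base regions that end 1 base before the start, with paired GAA units in capitals. Hspa1a and Hspa1b are shown because their sequences are nearly the same, Hspb1 because it holds both kinds of element, and Hspb7 as a muscle gene with neither.
Hspa1a, chr17:34972157-34972406, minus strand: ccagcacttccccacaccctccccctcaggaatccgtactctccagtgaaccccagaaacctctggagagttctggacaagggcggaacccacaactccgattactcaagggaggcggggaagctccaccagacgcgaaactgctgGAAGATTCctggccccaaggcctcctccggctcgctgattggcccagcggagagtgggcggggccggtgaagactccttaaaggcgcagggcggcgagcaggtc
Hspa1b, chr17:34959239-34959488, minus strand: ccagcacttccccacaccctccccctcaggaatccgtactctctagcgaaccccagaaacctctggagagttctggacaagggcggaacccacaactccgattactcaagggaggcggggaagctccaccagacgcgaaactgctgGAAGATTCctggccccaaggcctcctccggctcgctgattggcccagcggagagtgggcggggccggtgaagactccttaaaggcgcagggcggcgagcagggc
Hspb1, chr5:135887669-135887918, plus strand: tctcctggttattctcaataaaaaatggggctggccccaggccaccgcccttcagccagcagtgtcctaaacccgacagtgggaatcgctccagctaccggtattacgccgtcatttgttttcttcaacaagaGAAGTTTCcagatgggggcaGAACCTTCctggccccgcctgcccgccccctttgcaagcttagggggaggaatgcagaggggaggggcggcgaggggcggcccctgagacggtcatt
Hspb7, chr4:141420529-141420778, plus strand: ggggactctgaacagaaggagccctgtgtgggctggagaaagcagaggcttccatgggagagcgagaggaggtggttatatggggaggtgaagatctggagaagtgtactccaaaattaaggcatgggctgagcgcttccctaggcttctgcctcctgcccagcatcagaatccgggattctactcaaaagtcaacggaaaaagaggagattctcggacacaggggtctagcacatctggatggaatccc

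Hspa1a and Hspa1b differed at 3 positions of these regions, counted from 1 at the 5′ end with the Hspa1a base first: C44T, T47C, and T249G. Their paired units lay at the same place, 104 to 97 bases before the start. In Hspb1, pairs lay 117 to 110 and 97 to 90 bases before the start.

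Transcript levels of the 10 genes spanned 2.34 to 932 TPM. Hspa8 had the highest mean in each group. In Ctrl colon the order after it was Hspb1, Hspb6, Hspb8, Cryab, Dnajb1, Hsph1, Hspb7, Hspa1b, and Hspa1a. The neighbors Hspb6 and Hspb8 overlapped there, as did Cryab and Dnajb1. In Ctrl bladder the order was Hspa8, Hspb1, Hspb6, Hspb8, Cryab, Hspb7, Hsph1, Dnajb1, Hspa1b, and Hspa1a. Overlap in Ctrl bladder was between Hspb1 and Hspb6, between Hsph1 and Dnajb1, and between Dnajb1 and Hspa1b. The small heat shock proteins took ranks 2 to 6 in Ctrl bladder. TPM is scaled by length, so levels of genes are set side by side here. Reads shared with similar or overlapping genes can shift the levels of Hspa8, Hspa1a, Hspa1b, and Cryab (described below).

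**Figure D1:**
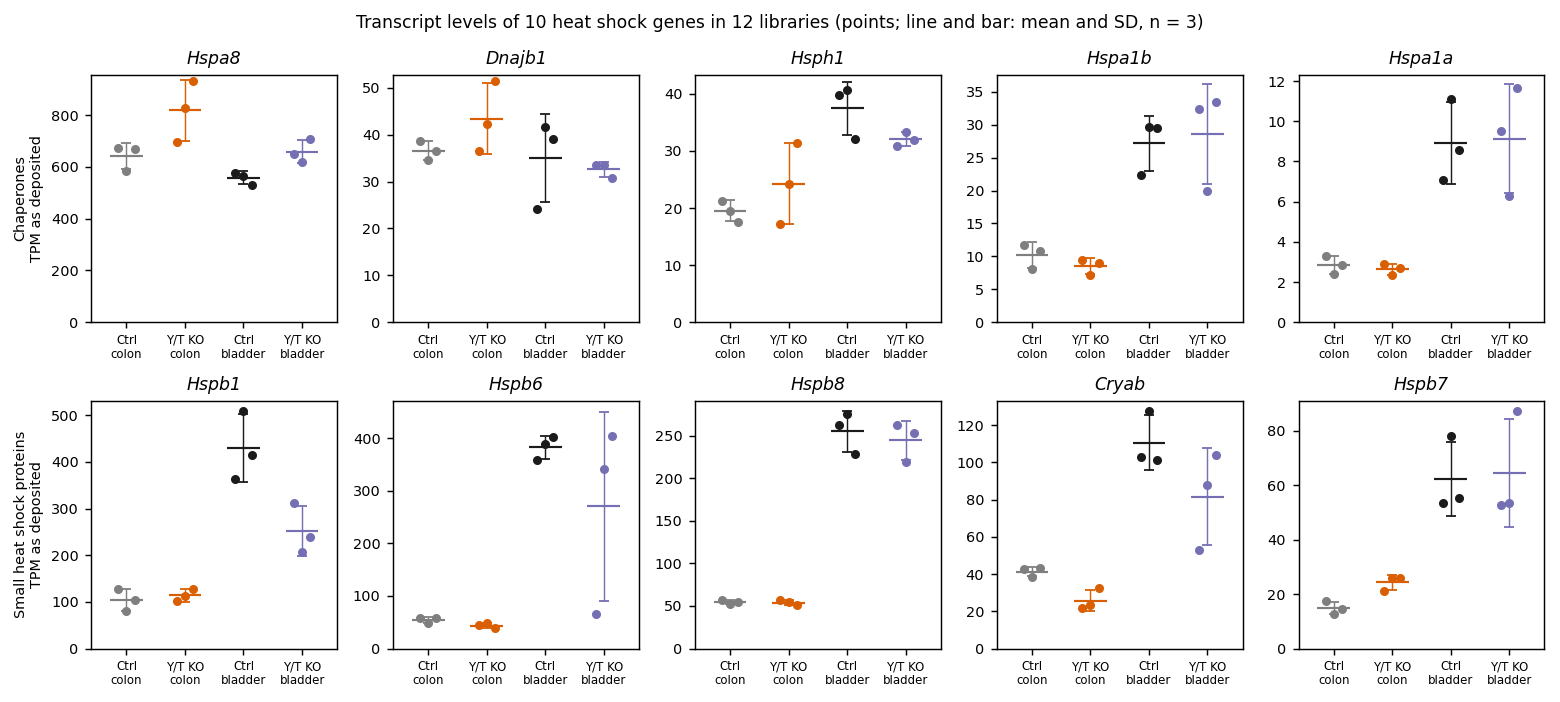
TPM of each gene in each library (points), by group, with mean and SD (line and bar, n = 3). Chaperones are in the upper row and small heat shock proteins in the lower row, and each vertical axis starts at 0. The 5 small heat shock proteins lie higher in bladder than in colon in Ctrl, and Hspb6 in the Y/T KO bladder of mouse 782 lies at 66.6 TPM.

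The clearest differences were between the tissues. In Ctrl mice, 8 of the 10 genes were called lower in colon than in bladder and 1, Hspa8, was called higher. Of all 19773 genes tested, 50.4% were called, 25.3% lower and 25.1% higher. All 5 small heat shock proteins were among the lower genes, with a median log2 difference of -1.79, against 0.014 over all genes. The chaperones Hspa1a, Hspa1b, and Hsph1 were lower as well. Without rescaling, the median of all genes moved to -0.237, with 3510 genes called higher and 6312 lower, so tissue differences are given relative to that scale.

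Hspb6 (chr7:30552178-30555443), encoding HSP20, a protein phosphorylated when smooth muscle relaxes, differed by the largest factor among the 10 genes. In Ctrl colon it stood at 58.2 TPM in mouse 788, 48.5 in mouse 786, and 57.5 in mouse 787. In Ctrl bladder it stood at 359 in mouse 784, 389 in mouse 785, and 402 in mouse 788, and the same order of mice holds for the Ctrl values that follow. These groups were far from overlapping, and Hspb6 was 5.84-fold lower in colon (log2 -2.55, SE 0.55, adjusted p = 0.00296). Hspb8 (chr5:116408491-116422864), the partner of BAG3 in removing damaged filamin, had the smallest SE. Ctrl colon held 56.8, 52.4, and 55.0 TPM of it, and Ctrl bladder 263, 275, and 229. Its level was 3.88-fold lower in colon (log2 -1.96, SE 0.12, adjusted p = 1.04e-07).

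Hspb1 (chr5:135887919-135889563), a regulator of actin filaments, measured 128, 80.1, and 105 TPM in Ctrl colon and 364, 510, and 416 in Ctrl bladder. It was 3.46-fold lower in colon (log2 -1.79, SE 0.21, adjusted p = 2.49e-05). Hspb7 (chr4:141420779-141425311), first known from heart muscle, measured 17.3, 12.8, and 14.6 TPM in Ctrl colon and 53.4, 78.1, and 55.4 in Ctrl bladder. That difference was 3.45-fold (log2 -1.79, SE 0.22, adjusted p = 4.56e-05). Cryab (chr9:50751325-50756636), encoding αB-crystallin of lens and muscle, measured 42.7, 38.3, and 43.0 TPM in Ctrl colon and 103, 128, and 101 in Ctrl bladder. It was 2.22-fold lower in colon, the smallest difference among the small heat shock proteins (log2 -1.15, SE 0.25, adjusted p = 0.00225).

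Among the chaperones, the inducible HSP70 genes were low in both tissues. Hspa1b (chr17:34956436-34959238) measured 11.8, 8.08, and 10.8 TPM in Ctrl colon and 22.4, 29.6, and 29.6 in Ctrl bladder. It was 2.22-fold lower in colon (log2 -1.15, SE 0.23, adjusted p = 0.00125), and Hspa1a was 2.54-fold lower (log2 -1.34, SE 0.25, adjusted p = 0.00084). Hspa1a (chr17:34969190-34972156) ranged from 2.42 to 3.28 TPM in Ctrl colon and from 7.07 to 11.1 in Ctrl bladder. These neighbors have 1 exon each, and their transcripts shared 2201 aligned bases at 99.2% identity, so reads may be split between them. The ratio of Hspa1b to Hspa1a lay between 2.67 and 3.79 in the 12 libraries, and summing the genes changed no call.

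Hsph1 (chr5:149614287-149636376), encoding the HSP110 exchange factor of HSP70, measured 21.3, 19.5, and 17.6 TPM in Ctrl colon and 39.7, 40.6, and 32.2 in Ctrl bladder (log2 -0.68, SE 0.20, adjusted p = 0.0142). Dnajb1 (chr8:83608193-83612653), encoding the HSP40 that delivers substrates to HSP70, measured 34.5 to 38.7 TPM in Ctrl colon and 24.2 to 41.6 in Ctrl bladder. The Ctrl bladder of mouse 784 held the low value, and Dnajb1 was not called (log2 0.36, SE 0.19, adjusted p = 0.139). Hspa8 (chr9:40800984-40810087) went the other way, at 673, 585, and 670 TPM in Ctrl colon against 578, 565, and 530 in Ctrl bladder. Its groups did not overlap (log2 0.46, SE 0.13, adjusted p = 0.013), but the call was lost on TPM without rescaling (log2 0.20, adjusted p = 0.172). It was also lost without the Ctrl bladder of mouse 788 (adjusted p = 0.0547).

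In Y/T KO mice, 7 of the 10 genes were called lower in colon than in bladder and 2 higher, where 51.3% of all genes were called, 25.6% lower and 25.8% higher. The 7 comprised the 5 small heat shock proteins with Hspa1a and Hspa1b. Hsph1 was not called here (log2 -0.17, SE 0.20, adjusted p = 0.511), and Dnajb1 was called higher (log2 0.67, SE 0.19, adjusted p = 0.0118). Without rescaling, Dnajb1 lost its call (log2 0.40, adjusted p = 0.105). With the bladders highest in skeletal muscle markers left out (mice 784, 783, and 780), 4 of the 10 genes were called between the Y/T KO tissues, against the 1 Y/T KO bladder left, that of mouse 782. In that setting 34.9% of all genes were called. The 4 were Hspa1a, Hspa1b, Hspb1, and Hspb8, all lower in colon. The calls of Hspb6, Hspb7, and Cryab were lost with smaller log2 differences (-0.30, -0.81, and -0.74). Those of Hspa8 and Dnajb1 were lost with differences about as large as before (0.63 and 0.67).

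Mice that gave both tissues showed the same order. In mouse 788 (Ctrl), the bladder-to-colon ratio was 6.89 for Hspb6, 4.02 for Hspb8, and 0.787 for Hspa8. In the Y/T KO mice 783 and 780, the ratio was 7.14 and 10.3 for Hspb6, 4.02 and 5.01 for Hspb8, and 0.749 and 0.758 for Hspa8. Within 1 mouse, the small heat shock proteins were thus 1.84 to 10.3 times as high in bladder, and Hspa8 was lower there. The bladders of mice 783 and 780 were those high in skeletal muscle markers (8809 and 9394 TPM, against 1394 in mouse 788). The part of these markers in the ratios was not tested.

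**Figure D2:**
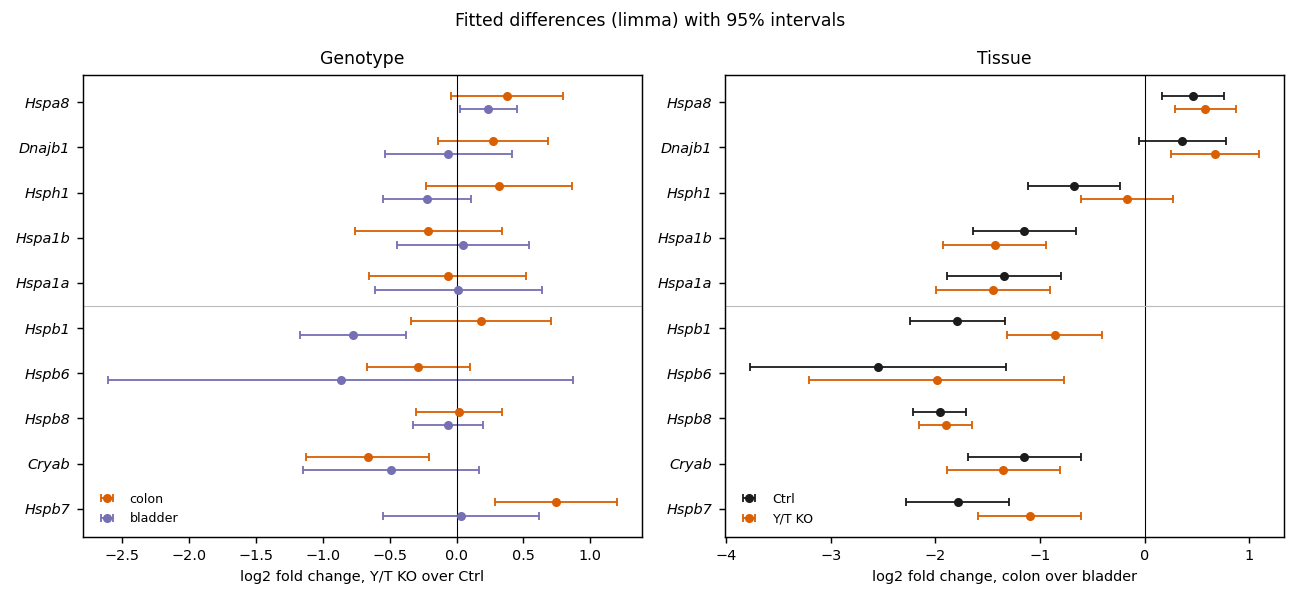
Fitted log2 fold changes with 95% intervals (limma). The left panel gives Y/T KO over Ctrl in colon and bladder, and the right panel gives colon over bladder in Ctrl and Y/T KO. Intervals of the small heat shock proteins lie below 0 in the tissue panel, while most genotype intervals include 0.

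The summed markers of smooth muscle (14 genes, Acta2, Myh11, and Des among them) moved with these levels. They summed to 10650 to 11610 TPM in Ctrl colon and 47060 to 61570 in Ctrl bladder, and all 14 were called lower in colon. Set against this sum, the 5 small heat shock proteins together made 21.8 to 26.1 TPM per 1000 TPM of markers in Ctrl colon. In Ctrl bladder they made 20.7 to 24.3, so the Ctrl ranges of the tissues overlapped on this scale. Taken singly, Hspb6 stayed higher in bladder (4.55 to 5.02 per 1000 in Ctrl colon and 6.32 to 7.62 in Ctrl bladder). Cryab was higher in colon (3.6 to 3.75 against 1.74 to 2.18). Hspa8 stood at 54.9 to 58.5 per 1000 in Ctrl colon and at 9.11 to 12.3 in Ctrl bladder. The part of smooth muscle content in these levels was not tested.

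The proportion of small heat shock proteins to chaperones also differed between the tissues. The 5 chaperones summed to 649 to 748 TPM in Ctrl colon and 640 to 688 in Ctrl bladder, with Hspa8 making 82.1% to 91.6% of the sum over the 12 libraries. The small heat shock proteins summed to 232 to 303 in Ctrl colon and 1141 to 1380 in Ctrl bladder. Their ratio to the chaperones was 0.357 to 0.405 in Ctrl colon and 1.70 to 2.01 in Ctrl bladder. In Y/T KO it was 0.269 to 0.322 in colon and 0.987 to 1.34 in bladder, below the Ctrl range in each tissue. With Hspa8 summed with its near-identical pseudogenes (described below), the ratio was 0.228 to 0.289 in Ctrl colon and 0.222 to 0.24 in Y/T KO colon, which overlapped. In bladder it was then 1.3 to 1.36 in Ctrl and 0.791 to 1.08 in Y/T KO, still apart. These sums were given no test.

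**Figure D3:**
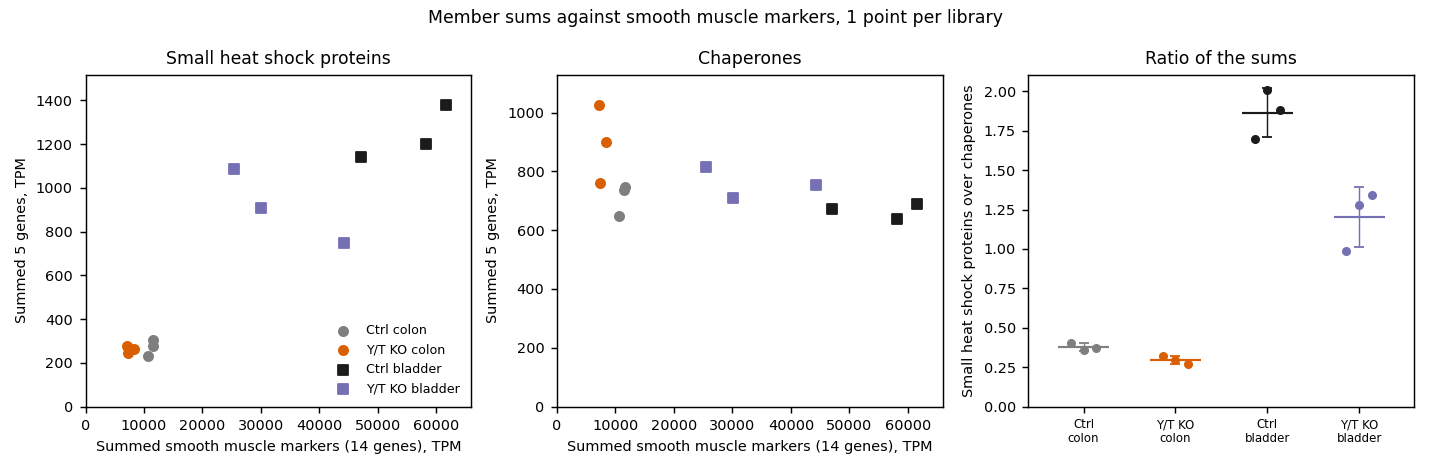
Summed TPM of the small heat shock proteins (left) and of the chaperones (middle) against summed smooth muscle markers, 1 point per library, with the ratio of the sums by group (right, line and bar are mean and SD, n = 3). The small heat shock protein sum is 232 to 303 in colon and 746 to 1380 in bladder, while the chaperone sum lies between 640 and 1027 in both.

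Genotypes were compared next, within each tissue, to ask which heat shock genes differ after deletion of Yap1 and Wwtr1. In colon none of the 10 genes was called (limma), and 2, Hspb7 and Cryab, had an unadjusted p under 0.05. Of all 17500 genes, 0.137% were called, 0.0571% higher and 0.08% lower, with 899 higher and 803 lower at an unadjusted p under 0.05. In 4 of the 10 genes the TPM as deposited did not overlap between the genotypes, Hspa8 and Hspb7 higher and Cryab and Hspb6 lower in Y/T KO. The Hspb6 groups overlapped once rescaled (below). Separation of TPM as deposited occurred in 15.8% of all genes tested in colon, 7.52% higher and 8.28% lower.

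Hspb7 had the largest fitted increase of the 10 in colon. Its level was 12.8 to 17.3 TPM in Ctrl colon, whereas Y/T KO colon held 21.1 in mouse 759, 25.8 in mouse 783, and 26 in mouse 780, the order used below. The means were 14.9 ± 2.26 and 24.3 ± 2.77 TPM (SD, n = 3). Every Y/T KO library was above every Ctrl library, by 1.67-fold in the fit (log2 0.74, SE 0.20, adjusted p = 0.356). Summed smooth muscle markers were lower in these libraries, at 7144 to 8314 TPM against 10650 to 11610 in Ctrl. Per 1000 TPM of markers, Hspb7 made 1.2 to 1.49 in Ctrl colon and 2.88 to 3.64 in Y/T KO colon. On this scale Hspa8, Hsph1, Dnajb1, Hspb1, Hspb6, and Hspb8 were also higher in Y/T KO colon without overlap. Hspa8 made 54.9 to 58.5 in Ctrl colon and 94.9 to 130 in Y/T KO colon. Hspa1b and Cryab overlapped, and the Hspa1a ranges met at 0.282. All 14 smooth muscle markers were below 0 on the log2 scale and none was called by limma. With its count test, the paper reported several of them, Acta2 and Tagln among them, as reduced in both tissues. In dissected colon muscle, it reported Acta2 and Myh11 as reduced, but not Tagln and Myl9 significantly. It found no change in the number of muscle nuclei in colon. Across genotypes, values per 1000 TPM of markers are thus no measure per muscle cell, here and below. Summed skeletal muscle markers were 33.7 to 35.3 TPM in Y/T KO colon and 19.7 to 33.1 in Ctrl colon, with 5 of 12 above the filter. The part of either marker list in Hspb7 was not tested.

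Cryab lay the other way. It measured 42.7, 38.3, and 43.0 TPM in Ctrl colon and 21.7, 23.3, and 32.3 in Y/T KO colon, without overlap. The means were 41.4 ± 2.64 and 25.8 ± 5.72 TPM. The fitted difference was 1.59-fold lower (log2 -0.67, SE 0.20, adjusted p = 0.404). Per 1000 TPM of smooth muscle markers, Cryab made 3.6 to 3.75 in Ctrl colon and 2.80 to 4.52 in Y/T KO colon, which overlapped. Hspb2, another small heat shock protein gene, lies head to head with Cryab on the opposite strand of chromosome 9 with 1030 bases of overlap. It measured 6.18 to 10.01 TPM in Ctrl colon and 3.14 to 6.27 in Y/T KO colon (log2 -0.79, SE 0.33, adjusted p = 0.506). Libraries were stranded, but whether the counting used strand is not given in the sources used here, so reads of the overlap may count for either gene.

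Hspb6 measured 58.2, 48.5, and 57.5 TPM in Ctrl colon and 44.4, 47.8, and 39.1 in Y/T KO colon. The nearest values of the groups were 48.5 and 47.8 (log2 -0.28, SE 0.17, adjusted p = 0.612). These are TPM as deposited of Ctrl mouse 786 and Y/T KO mouse 783, whose colon size factors were 1.098 and 0.9975. Once rescaled by the size factors, the groups overlapped. Per 1000 TPM of smooth muscle markers, Hspb6 made 4.55 to 5.02 in Ctrl colon and 5.48 to 6.06 in Y/T KO colon. Hspb8 overlapped between the genotypes, at 52.4 to 56.8 TPM in Ctrl colon and 50.6 to 57.2 in Y/T KO colon. Its 95% interval of the log2 difference ran from -0.30 to 0.34, and its fitted value turned to -0.02 without rescaling. Hspb1 ranged from 80.1 to 128 in Ctrl colon and from 101 to 128 in Y/T KO colon (interval -0.34 to 0.70). The median log2 difference over the 5 small heat shock proteins was 0.02, beside 0.006 over all genes.

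The chaperones of colon gave a median log2 difference of 0.27. Dnajb1 measured 36.5, 42.3, and 51.5 TPM in Y/T KO colon, against 34.5 to 38.7 in Ctrl (log2 0.27, SE 0.18, adjusted p = 0.65). Hsph1 measured 17.2, 24.2, and 31.4 TPM in Y/T KO colon, against 17.6 to 21.3 in Ctrl (log2 0.31, SE 0.24, adjusted p = 0.683). For both genes mouse 759 lay within or below the Ctrl range and mouse 780 was highest. Hspa1a and Hspa1b overlapped between the genotypes in colon, with 95% intervals of -0.65 to 0.52 and of -0.76 to 0.34 on the log2 scale. Immediate-early genes (20 listed), which respond to stimulation and to tissue handling, summed to 906 to 1004 TPM in Ctrl colon and 1127 to 1320 in Y/T KO colon. Their part in the chaperone levels was not tested.

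Hspa8 was above Ctrl without overlap in both tissues. In colon it measured 673, 585, and 670 TPM in Ctrl and 696, 826, and 932 in Y/T KO (log2 0.38, SE 0.18, adjusted p = 0.556). In bladder it measured 578, 565, and 530 in Ctrl and 649, 618, and 706 in Y/T KO (log2 0.24, SE 0.09, adjusted p = 0.298). Neither difference was called, and the bladder groups overlapped once near-identical copies were summed. The genome holds processed pseudogenes of Hspa8, which are reinserted copies of its transcript, and 5 of them matched it over at least 200 bases at 95% identity or more.

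Of these, Gm15459 on chromosome 5 (5781615 to 5783555, minus strand) matched Hspa8 over 1941 bases at 99.7% identity and was listed at 160 to 363 TPM. It measured 289, 363, and 270 TPM in Ctrl colon and 309, 188, and 205 in Y/T KO colon. In bladder it measured 160, 342, and 278 in Ctrl and 181, 190, and 183 in Y/T KO. Gm15459 was low in the colon libraries where Hspa8 was highest, and the other 4 pseudogenes were each below 10 TPM. At this identity, short reads of Hspa8 can be assigned to Gm15459.

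Summed with its 5 pseudogenes, Hspa8 made 973, 955, and 948 TPM in Ctrl colon and 1014, 1025, and 1148 in Y/T KO colon. The groups still did not overlap, and the fitted log2 difference was 0.18 in place of 0.38 (SE 0.14, adjusted p = 0.698). In bladder the sum was 744, 914, and 815 in Ctrl and 837, 816, and 897 in Y/T KO, which overlapped (log2 0.05, SE 0.10, adjusted p = 0.848). Between the Ctrl tissues, the sum was higher in colon (log2 0.48, SE 0.10, adjusted p = 0.00212), a call lost without rescaling (log2 0.22, adjusted p = 0.0773). Hspb1 has 1 such copy, Hsp25-ps1, at 3.68 to 20.9 TPM, and summing it moved no Hspb1 call.

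**Figure D4:**
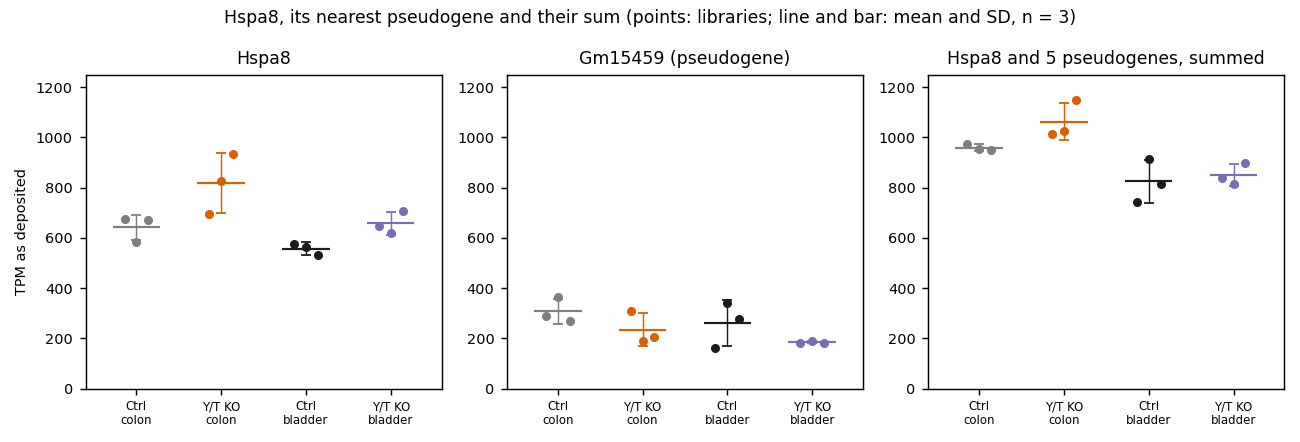
TPM of Hspa8, of the pseudogene Gm15459, and of Hspa8 summed with its 5 near-identical pseudogenes, by library (points) with mean and SD (line and bar, n = 3), on 1 scale from 0. In bladder the genotypes are apart for Hspa8 alone and overlap for the sum, at 744 to 914 in Ctrl and 816 to 897 in Y/T KO.

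In bladder, again none of the 10 genes was called (limma), and 2, Hspb1 and Hspa8, had an unadjusted p under 0.05. Of all 18237 genes, 0.302% were called, 0.0823% higher and 0.219% lower, with 1211 higher and 1496 lower at an unadjusted p under 0.05. The TPM of the genotypes did not overlap in 2 of the 10 genes, Hspa8 (above) and Hspb1, where 20.4% of all genes tested did not overlap, 10.4% higher and 10% lower. The median log2 difference of the small heat shock proteins was -0.49, and that of all genes was 0.002.

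Hspb1 had the smallest p of the 10 genes. Its level was 364 to 510 TPM in Ctrl bladder, whereas Y/T KO bladder held 312 in mouse 782, 208 in mouse 783, and 239 in mouse 780, the order used below. The means were 430 ± 73.7 and 253 ± 53.4 TPM. All Y/T KO libraries were below all Ctrl libraries, 1.71-fold in the fit (log2 -0.77, SE 0.17, adjusted p = 0.141). In colon its log2 difference was 0.18 (SE 0.23), and the difference between the knockout effects of the tissues, 0.93, was not called (SE 0.29, adjusted p = 0.277). Smooth muscle markers summed to 47060 to 61570 TPM in Ctrl bladder and 25410 to 44280 in Y/T KO bladder. Per 1000 TPM of these markers, Hspb1 made 7.14 to 8.28 in Ctrl bladder and 6.90 to 9.39 in Y/T KO bladder, which overlapped. The 14 markers were all below 0 on the log2 scale, none was called, and their part in Hspb1 was not tested.

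Hspb6 showed the widest spread of the 10 genes. Y/T KO bladder held 66.6, 341, and 404 TPM, against 359 to 402 in Ctrl. The library of mouse 782 alone was low, near the levels of colon, and the fit gave log2 -0.87 with an SE of 0.71 (adjusted p = 0.609). Without that library the log2 difference was -0.02. That value rests on the Y/T KO bladders of mice 783 and 780, which were high in skeletal muscle markers (8809 and 9394 TPM). Per 1000 TPM of smooth muscle markers, Hspb6 ranged from 1.5 to 15.9 in Y/T KO bladder (median 11.3) and from 6.32 to 7.62 in Ctrl bladder. The part of either marker list in Hspb6 was not tested. Mouse 782 also held the lowest Cryab of the bladder libraries, 52.8 TPM, whereas its Hspb8 (262) and Hspb1 (312) were the highest of the Y/T KO bladders. Smooth muscle markers summed to 44280 TPM in that library, below every Ctrl bladder (47060 to 61570) and above mice 783 and 780 (30080 and 25410). Its skeletal muscle markers summed to 1294 TPM, near the Ctrl range of 1394 to 2268. Proser3 and Lin37, which overlap Hspb6 by 122 and 3 bases on the opposite strand, stayed between 3.67 and 7.99 and between 21.5 and 38.1 TPM over all libraries. In that library 10 of 7480 genes lay at least 4-fold below the lowest of the other 5 bladder libraries. The other libraries had 1 to 11 such genes each within their tissue. The cause of the low Hspb6 value was not tested.

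Cryab measured 103, 128, and 101 TPM in Ctrl bladder and 52.8, 88.0, and 104 in Y/T KO bladder. The groups overlapped through mouse 780, whose bladder was high in skeletal muscle markers (log2 -0.49, SE 0.27, adjusted p = 0.455). Hspb7 measured 53.4, 78.1, and 55.4 TPM in Ctrl bladder and 52.7, 53.7, and 87.3 in Y/T KO bladder, with 1 high library in each group (interval -0.55 to 0.61). The high Y/T KO value belonged to mouse 780, whose skeletal muscle marker sum was 9394 TPM. That sum was 8809 in mouse 783, whose Hspb7 was 53.7. All 12 skeletal muscle markers were above 0 in this comparison (median log2 3) and none was called. Their part in Hspb7 and in Cryab was not tested. Hspb8 ranged from 229 to 275 in Ctrl bladder and from 219 to 262 in Y/T KO bladder (interval -0.32 to 0.20).

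Of the chaperones in bladder, Hsph1 measured 39.7, 40.6, and 32.2 TPM in Ctrl and 30.9, 33.4, and 31.9 in Y/T KO (log2 -0.22, SE 0.14, adjusted p = 0.506). Dnajb1 ranged from 24.2 to 41.6 in Ctrl and from 30.8 to 33.5 in Y/T KO (interval -0.54 to 0.41). Hspa1b measured 22.4, 29.6, and 29.6 TPM in Ctrl bladder and 32.4, 19.9, and 33.5 in Y/T KO bladder, where mouse 783 was low. Hspa1a followed it, at 7.07, 11.1, and 8.58 in Ctrl and 9.49, 6.26, and 11.7 in Y/T KO. The intervals were -0.45 to 0.54 for Hspa1b and -0.61 to 0.64 for Hspa1a. Immediate-early genes summed to 458, 2130, and 932 TPM in Ctrl bladder and 557, 805, and 1097 in Y/T KO bladder. The inducible HSP70 genes summed to 29.4, 40.7, and 38.1 in those Ctrl libraries and 41.9, 26.2, and 45.2 in the Y/T KO libraries. The part of these genes in the HSP70 levels was not tested.

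No difference between the knockout effects in colon and in bladder was called for any of the 10 genes, where 0.0607% of all genes were called, 0.0354% higher and 0.0253% lower. At an unadjusted p under 0.05, 1 of the 10, Hspb1, and 1271 higher and 1078 lower genes of all 19773 stood out (limma). For Hspb7 the difference was 0.69 (SE 0.32, adjusted p = 0.422), and for Hsph1 it was 0.51 (SE 0.28, adjusted p = 0.498).

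Replicate spread of the 10 genes was below that of other genes in colon and above it in bladder, by the medians. The median coefficient of variation of the 10 genes was 9.7% in Ctrl colon, 12.6% in Y/T KO colon, 14.4% in Ctrl bladder, and 23.8% in Y/T KO bladder. Medians over genes of at least 2 TPM were 16.7%, 16.1%, 12.7%, and 13.6%. The highest of the 10 was 66.3%, for Hspb6 in Y/T KO bladder.

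Co-variation was described over the 12 libraries, centered within tissue, where libraries of 1 genotype share any knockout effect. Hspa1a and Hspa1b varied most alike (Pearson's r = 0.896), as near-identical genes whose reads may be shared. Hspb6 and Cryab gave 0.755, with mouse 782 low in both, and Hspa8 and Hspb7 gave 0.753. The median over the 10 pairs of chaperones was 0.191, over the 10 pairs of small heat shock proteins 0.225, and over the 25 mixed pairs 0.218. These medians lie close together. Over 10956 genes of at least 5 TPM in each tissue, those most like the chaperone mean were Med8 (0.921), Prkrip1 (0.916), Stoml2 (0.904), Dph2 (0.9), and Exosc3 (0.891). Those most like the small heat shock protein mean were Nab2 (0.905), Spry1 (0.892), Igkv12-46 (0.883), H3f3a-ps2 (0.871), and Iglc2 (0.836). That mean includes the low Hspb6 value of mouse 782. Both sets of genes were picked as the highest correlations and were given no test.

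Genes around the 10 were read from lists. Of 6 genes for heat shock factors and their regulators, 4 were tested and none was called for genotype in either tissue. Hsf1, the main stress factor, measured 33.4, 42.3, and 30.9 TPM in Ctrl bladder and 30.2, 24.6, and 22.4 in Y/T KO bladder (log2 -0.46, SE 0.17, adjusted p = 0.281). In colon its log2 difference was 0.00 (SE 0.24). The smallest p-values in colon were those of Hsf2 (-0.12), Hsbp1 (0.08), and Hsf4 (0.13). Between Ctrl tissues, Hsf1 was lower in colon (log2 -0.69, SE 0.21, adjusted p = 0.0189), as was Hsf4 (-0.90, adjusted p = 0.0488).

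Of 21 other HSF1 target chaperones and co-chaperones, 19 were tested. In colon none was called for genotype, with 15 above and 4 below 0 (median log2 0.12) and the smallest p-values in Hspe1 (0.41), Chordc1 (0.38), and Ahsa1 (0.23). In bladder 1 was called, Serpinh1, the collagen chaperone HSP47. It measured 758, 859, and 842 TPM in Ctrl bladder and 400, 226, and 289 in Y/T KO bladder, without overlap (log2 -1.46, SE 0.18, adjusted p = 0.0396). The median over the 19 in bladder was 0.03. Between the Ctrl tissues, 5 of the 19 were called higher in colon, Hspd1 (0.78) and Fkbp4 (0.85) among them, and 2 lower, where 25.1% of all genes were called higher and 25.3% lower. The 2 called lower were Hspa2 (-1.92) and Serpinh1 (-2.34).

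None of 16 HSC70 co-chaperones was called for genotype in either tissue. In bladder the smallest p-values were those of Unc45a, a myosin chaperone (-0.68, adjusted p = 0.102), Hspbp1, an exchange factor (-0.73, adjusted p = 0.132), and Dnaja4 (0.44, adjusted p = 0.228). In colon they were those of Hspbp1 (0.71), Bag4 (-0.40), and St13 (-0.30). Between Ctrl tissues 3 of the 16 were called higher and 5 lower in colon, where 50.4% of all genes were called. The lowest were Bag2, an inhibitor of the ubiquitin ligase CHIP (-1.84, adjusted p = 6.25e-07), and the HSP40 gene Dnajb5 (-1.68, adjusted p = 0.00103).

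The BAG3 pathway, in which BAG3 links HSPB8 and HSC70 to filamin turnover, was read from 9 genes, Hspb8 and Hspa8 among them. None was called for genotype. In colon the smallest p-values were those of Synpo2 (-0.85, SE 0.13, adjusted p = 0.0851), Flnc (-0.93, adjusted p = 0.356), and Flna (-0.51, adjusted p = 0.358). In bladder they were those of Flnc (-1.22, SE 0.26, adjusted p = 0.145), Hspa8, and Map1lc3b (0.28, adjusted p = 0.301). Flnc measured 27.8, 17.5, and 20.7 TPM in Ctrl colon and 11.6, 13.1, and 8.71 in Y/T KO colon. Bag3 itself ranged from 40.8 to 60.8 TPM in Ctrl colon and from 49.1 to 60.4 in Y/T KO colon. Between Ctrl tissues, Synpo2 (-2.24), Flna (-2.06), and Flnc (-1.84) were lower in colon together with Hspb8.

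Small heat shock protein genes outside the 10 were mostly low. Hspb2 measured 20.2, 28.5, and 24.8 TPM in Ctrl bladder and 15.0, 11.2, and 12.8 in Y/T KO bladder, without overlap (log2 -0.91, SE 0.15, adjusted p = 0.0998). Hspb3, known from skeletal muscle, was at 5.96 and 6.14 TPM in the Y/T KO bladders of mice 783 and 780, the libraries high in skeletal muscle markers, and at 0 to 1.02 in the other 10. Hspb11, a ciliary protein despite its name, was higher in Ctrl colon than in Ctrl bladder (log2 1.51, adjusted p = 7.41e-07).

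Chaperones of the endoplasmic reticulum, which answer to a different stress pathway, gave 17 tested genes and no call for genotype in either tissue. The median log2 difference was 0.13 in colon and -0.12 in bladder. Between Ctrl tissues, 4 of the 17 were called higher in colon and none lower, where 25.1% of all genes were called higher and 25.3% lower. Pdia3 (0.73) and Dnajb11 (0.67) had the smallest p.

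Immediate-early genes gave 19 tested genes and no call for genotype. The median log2 difference was 0.62 in colon, with 16 above 0, and -0.42 in bladder, with 12 below 0. Junb, a transcription factor of this group, measured 12.6 to 17.2 TPM in Ctrl colon and 18.7 to 38.8 in Y/T KO colon, against 29.6 to 72.8 in Ctrl bladder and 9.41 to 13.7 in Y/T KO bladder. The difference between its knockout effects, 2.86 on the log2 scale, was not called (adjusted p = 0.0861).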

How the data were processed

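RNA of 12 libraries (poly(A) selected, stranded, sequenced on an Illumina instrument) was processed by the authors with HISAT2 on GRCm38 and StringTie, per the labels and methods, with no versions given. The annotation, and whether strand was used, are not given in the sources used here. The deposited tables give TPM and FPKM per gene, which StringTie normalized for length and library total, with read coverage per base. The main values here are TPM, and FPKM served as an alternative. For depth, each gene's coverage was divided by its FPKM. The quotient that recurred most within a library was taken as its depth, 2.80 to 3.94 gigabases. Between 23.4% and 24.8% of genes per library had that quotient, so the depth is an estimate. Read counts were not used here, so the study's count test was replaced by limma 3.58.1 in R 4.3.3.

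TPM was summed by gene ID, rescaled by median-of-ratios size factors (0.872 to 1.13 over the 12 libraries), and set to log2 after adding 0.1. Genes of at least 0.5 TPM in at least 3 libraries of a fit were kept. Genotypes were compared in the 6 libraries of each tissue. Tissues and the interaction were compared in 1 fit of 12 libraries, with trend and robust options. Each p was adjusted over all genes tested (Benjamini-Hochberg). Libraries of a group came from separate mice. Similar transcripts were found with blastn 2.17.0 in GENCODE transcripts at 95% identity over 200 bases.

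The members and lists were chosen with earlier results of these data known. Named genes were all 10 genes, Yap1 and Wwtr1, the called genes of each list or the 3 of smallest p, and the 5 most alike in profile by class. Other genes named were chosen after their values were seen (Gm15459, Hsp25-ps1, Hspb3, Bag3, and antisense neighbors). The mice that gave both tissues pair libraries by design. Deviations of their libraries from group means correlated at -0.0091, 0.0674, and 0.0437 over genes (mean over different mice -0.00686).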

Additional observations from a re-analysis of the deposited data

How the results depend on the processing

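Alternatives were a pseudocount of 1 TPM, no filter, a filter on the mean, TPM as deposited, FPKM, limma without trend and robust options, 1 fit of all 12 libraries, the mouse block, Hspa1a summed with Hspa1b, and leaving out each library in turn. Dropping the bladders of mice 784, 783, and 780 and summing near-identical pseudogenes were chosen after seeing the data. Over values of single genes, leaving out single libraries aside, 414 of the planned results kept direction and side of the threshold, 3 reversed, and 3 lost their call. The 3 reversed were Hspb8 in colon, at -0.019 on TPM as deposited, -0.007 in 1 fit of all libraries, and -0.009 with the mouse block. The 3 lost calls were Hspa8 between Ctrl tissues on TPM as deposited (0.203, adjusted p = 0.172) and on FPKM (0.342, adjusted p = 0.0534), and Dnajb1 between Y/T KO tissues on TPM as deposited (0.399, adjusted p = 0.105). Of all genes, those called for genotype in colon numbered 24, but 6 without a filter, 69 in 1 fit of all libraries, and 73 in that fit with the mouse as a block. The block changed no call of the 10 genes. Those called for the interaction numbered 12, but 19 with a pseudocount of 1 and 22 without trend and robust options. Without rescaling, the split between Y/T KO tissues was 3634 higher and 6700 lower.

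Leaving out 1 library at a time, calls over all genes ranged from 5 to 63 in colon (5 without Ctrl mouse 786 or Y/T KO mouse 783 or 780, 63 without Y/T KO mouse 759), 11 to 51 in bladder (11 without Ctrl mouse 785 or 788), 8615 to 9994 and 8995 to 10477 between Ctrl and Y/T KO tissues, and 8 to 31 for the interaction (8 without the colon of Y/T KO mouse 780, 31 without that of mouse 759). Of the 10 genes, 0 were called for genotype or interaction, 8 to 9 between Ctrl tissues, and 9 between Y/T KO tissues. Signs turned, with log2 ranges, for Hspa1a (-0.235 to 0.055), Hspb1 (-0.059 to 0.363), and Hspb8 (-0.076 to 0.065) in colon. They turned in bladder for Hspa1a (-0.178 to 0.233), Hspa1b (-0.081 to 0.262), Dnajb1 (-0.288 to 0.084), and Hspb7 (-0.203 to 0.209), and between Y/T KO tissues for Hsph1 (-0.373 to 0.057). For the interaction they turned for Hspa1a (-0.314 to 0.087), Hspa8 (-0.004 to 0.223), Hspb6 (-0.286 to 1.029), and Hspb8 (-0.029 to 0.157). None of these was called.

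With the bladders of mice 784, 783, and 780 dropped, the lone Y/T KO bladder (mouse 782) was assumed to vary like the other groups. Then 2 genes were called for genotype in bladder, 6637 between Y/T KO tissues, 4 of the 10 between Y/T KO tissues, and 1 of the 10 for the interaction (Hspb6, 2.294, adjusted p = 0.0233). Reversed values were Hspa1a (-0.064), Hspb7 (-0.345), and Hspb8 (0.038) in bladder, and Hspb8 (-0.034) and Cryab (0.453) for the interaction. Calls lost, with log2 differences about as large as before, were Hspa8 (0.49, adjusted p = 0.0515) and Hsph1 (-0.632, adjusted p = 0.0735) between Ctrl tissues. Also lost were Hspa8, Dnajb1, Hspb6, Hspb7, and Cryab between Y/T KO tissues (adjusted p = 0.0504 to 0.308). Of these, Hspb6, Hspb7, and Cryab also had smaller log2 differences than before (-0.30, -0.81, and -0.74). This setting leaves fewer libraries, and a group of 1 library adds no spread of its own to the fit. The Hspb6 interaction here rests on the bladder of mouse 782, where Hspb6 measured 66.6 TPM. The dropped Y/T KO bladders of mice 783 and 780 held 341 and 404 TPM. When the bladder of mouse 782 alone was left out, the Hspb6 interaction turned to -0.286 on the log2 scale. TPM keeps no read depth, so no counting interval was given.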
